A study of Mus musculus with 12 samples.

Results

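The presynaptic vesicle release genes are 45 genes, chosen by symbol, whose products load, dock, prime, fuse and retrieve synaptic vesicles. They comprised 15 vesicle proteins, 16 SNARE proteins and their regulators, 12 active zone proteins and 2 endocytosis proteins. All 45 were found among the 48709 genes counted, and all 45 were among the 18847 genes that passed the filter for testing (5 or more counts in 6 or more of the 12 libraries). RNA was sequenced from mouse primary hippocampal cultures prepared from CD1 embryos at embryonic day 17, with hippocampi of several embryos pooled. At day 10 in vitro 6 cultures received lipid nanoparticles with a miR-148a-3p mimic, a synthetic RNA duplex that supplies extra copies of this microRNA, and 6 received nanoparticles with a negative control oligonucleotide (called a siRNA in the series description and a scrambled RNA in the study's text). According to the study's methods, ApoE4 was given along with the nanoparticles. Both groups were harvested at day 12, after 48 h, so the nanoparticle itself and ApoE4 were common to all cultures. The labels do not say whether cultures of a group came from separate preparations, and the p-values then measure the spread between these cultures only.

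Synaptic vesicles are filled with glutamate by vesicular transporters, tethered by synapsins and guided by Rab3 proteins to the active zone. There RIM, Munc13 and large scaffold proteins place them beside calcium channels. Syntaxin, SNAP-25 and synaptobrevin form the SNARE complex, complexins hold it ready, synaptotagmins sense the calcium that triggers fusion, and dynamin and amphiphysin help to recover the membrane. Hippocampal pyramidal neurons use glutamate and rely mainly on VGLUT1, with VGLUT2 more typical of subcortical neurons and of immature cortex.

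A microRNA recognises transcripts mainly through its seed, bases 2 to 8, and a match to the seed in a 3 prime UTR is the usual feature of its direct targets. The sequences given by the study for both oligonucleotides are shown with the seed in capitals, and the first is identical to mature mmu-miR-148a-3p in RefSeq (GRCm38.p6).
Mimic: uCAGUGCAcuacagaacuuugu
Negative control: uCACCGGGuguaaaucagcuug
Matches to the mimic were searched as TGCACTG (bases 2 to 8) and GCACTGA (bases 2 to 7 followed by A) on the transcript strand of the longest 3 prime UTR. They overlap in TGCACTGA, an 8-base site. Of the 45 members, 14 (31.1%) held at least 1 match, against 3307 of all 15082 tested genes with a 3 prime UTR (21.9%). The members' 3 prime UTRs were also longer, with a median of 2359 bases against 1173 for all those genes.

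The members with a match were the complexins Cplx2 and Cplx3, the calcium-binding Doc2b, the liprins Ppfia2 and Ppfia3, Rims1, Rims2, Stx1a, Sv2c, Syn3, Syt1, Syt2, Syt4 and Unc13b. The matches of the 3 members whose level changed are shown with the matched bases in capitals, each within 30 bases of the 3 prime UTR, with the site from the only member holding an 8-base match, Ppfia3, for comparison.
Stx1a, chr5:135050396-135050402, plus strand of GRCm38: ggtggggatagctcaGCACTGAgtctttgt
Cplx3 first site, chr9:57601505-57601511, minus strand: ccagggatggagctgGCACTGAacagtagc
Cplx3 second site, chr9:57600134-57600140, minus strand: tctgtgtctggaaaaGCACTGAgccctctc
Unc13b, chr4:43264143-43264149, plus strand: ataccttctgcagagGCACTGAgctaattc
Ppfia3, chr7:45339147-45339154, minus strand: cctgcctctgactcTGCACTGAgattaaag
An 8-base match was present in 1 member (2.22%) and in 4.15% of all tested genes with a 3 prime UTR. Matches to the seed of the negative control (CCCGGTG or CCGGTGA) were present in 3 members (6.67%), Ppfia2, Sv2c and Syt1, and in 4.42% of those genes. All of these values for the negative control assume that the sequence listed by the study is the one the control cultures received.

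Library totals ranged from 20018234 to 37149112 counts in control and from 28316456 to 33808253 in mimic, and did not separate the groups (exact permutation test, two-sided, p = 0.515). The 2 shallowest libraries were controls 1 and 2, with 20018234 and 23097094 counts. The members held 1.41% to 1.53% of all counts in control libraries and 1.42% to 1.44% in mimic libraries. Levels are given as CPM, counts per 1000000 of the TMM-scaled library total.

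The cultures, labelled as neurons, held markers of glial cells too, and these markers moved with the treatment. Of 24 neuron markers 10 were lower and 1 higher in mimic, and their summed level was 15922 to 16404 CPM in control and 14313 to 14795 CPM in mimic libraries, without overlap. Of 14 astrocyte markers 10 were higher and 1 lower, with sums of 5511 to 6039 CPM in control and 6757 to 7202 CPM in mimic. Of 14 oligodendrocyte lineage markers 7 were higher and 1 lower, with sums of 433 to 727 CPM and 815 to 1009 CPM. All 14 cell cycle genes were higher, with sums of 278 to 329 CPM and 546 to 577 CPM. Interneuron markers split into 3 higher and 3 lower of 16, with overlapping sums of 1320 to 1612 CPM and 1407 to 1496 CPM. Control 1 alone made that overlap, since its sum exceeded all others and the remaining controls lay below every mimic library. Microglia markers (0 higher and 3 lower of 12) and endothelial and mesenchymal markers (0 higher and 4 lower of 12 tested) had small sums, at 17.4 to 20.7 CPM against 15.4 to 37.7 CPM for the first and 268 to 336 CPM against 140 to 273 CPM for the second, of which 5 of 6 mimic libraries lay below all controls and mimic 4 did not. No marker on any list was at 0 in all libraries. The neuron markers did not move together, with log2 fold changes of -0.32 for Tubb3, -0.01 for Rbfox3 (not called) and 0.17 for Nefm. In bulk RNA, a shift in cell composition, in RNA per cell or in single markers cannot be told apart. The part of these shifts in the results for the members was not tested.

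**Figure D1:**
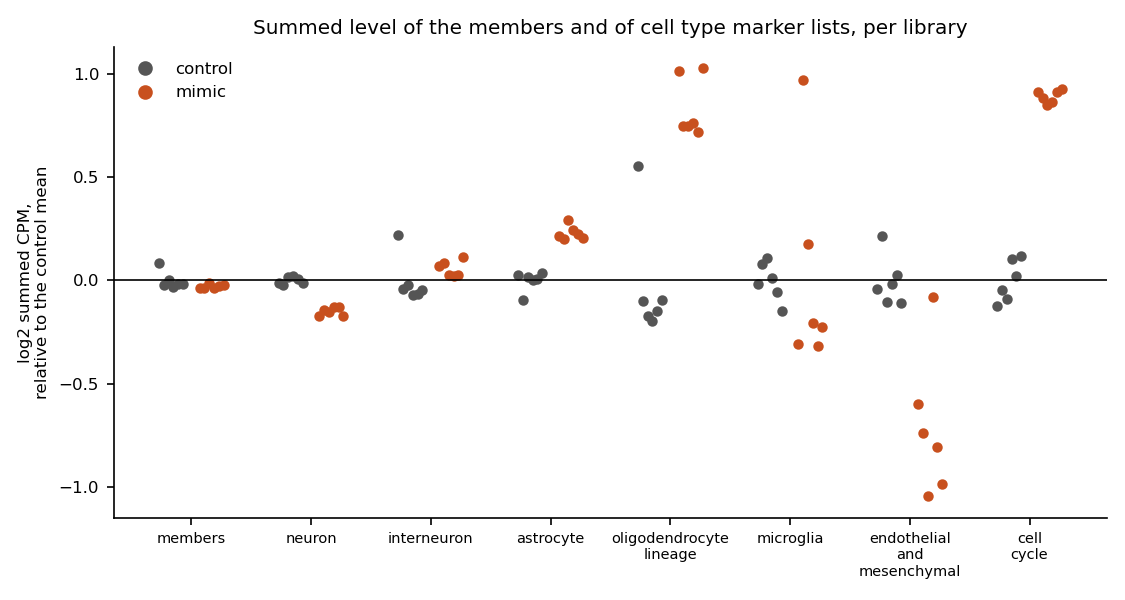
Summed CPM of the 45 members and of 7 marker lists in each library, as log2 relative to the mean of the control libraries (grey, control; orange, mimic; n = 6 a group). The neuron markers lie lower and the astrocyte, oligodendrocyte lineage and cell cycle genes higher in all mimic libraries, while the sums of the members overlap between groups.

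Within this setting the members changed little as a group. Their summed level was 14207 to 15448 CPM in control (median 14358) and 14182 to 14398 CPM in mimic (median 14240), so the groups overlapped. In the edgeR quasi-likelihood test over all genes, 13 of the 45 members (28.9%) had an adjusted p under 0.05, against 22.2% of all tested genes. Lower in mimic were 9 members (20%), against 10.7% of all genes, and higher were 4 (8.89%), against 11.5%. The 2 groups of libraries did not overlap for 10 members (22.2%), against 13.3% of all genes. Without control 1 the members counted 10 lower (22.2%) and 7 higher (15.6%), beside 13.1% and 14.4% of all genes tested in that fit. Without controls 1 and 2 together they counted 13 lower (28.9%) and 7 higher (15.6%), beside 15.4% and 16.4%. The median log2 fold change of the members was -0.05, beside -0.01 over all tested genes, and the median size of the change was 0.09, beside 0.12 over all genes. With 1 library left out at a time the members' median ran from -0.07 to -0.02, the latter without control 1.

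Directions are relative to the scale chosen. Scaling libraries to the neuron markers instead of by TMM raised the log2 fold changes of all genes alike, by a median of 0.098. On that scale 13 members (28.9%) were higher and 3 (6.67%) lower, beside 25.3% and 5.14% of all tested genes, and the share of higher among all called genes went from 51.7% to 83.1%. The median log2 fold change was 0.049 for the members and 0.086 for all genes. Under it Rab3b, Slc17a6 and Cplx3 remained lower and Sv2b, Syt12, Unc13b and Unc13c remained higher, while Syn2, Stx1a, Cplx1, Rims3, Erc2 and Amph kept a negative value and lost the call. Rab3a (log2 fold change 0.091, adjusted p = 0.0286) and Rims1 (0.083, adjusted p = 0.0387), slightly negative and not called by TMM, were called higher on that scale, at values close to the median of all genes. Newly called higher there were also Slc17a7 (0.23), Vamp1 (0.21), Snap25 (0.20), Bsn (0.18), Syt1 (0.16), Syngr1 (0.14) and Sv2c (0.14).

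**Figure D2:**
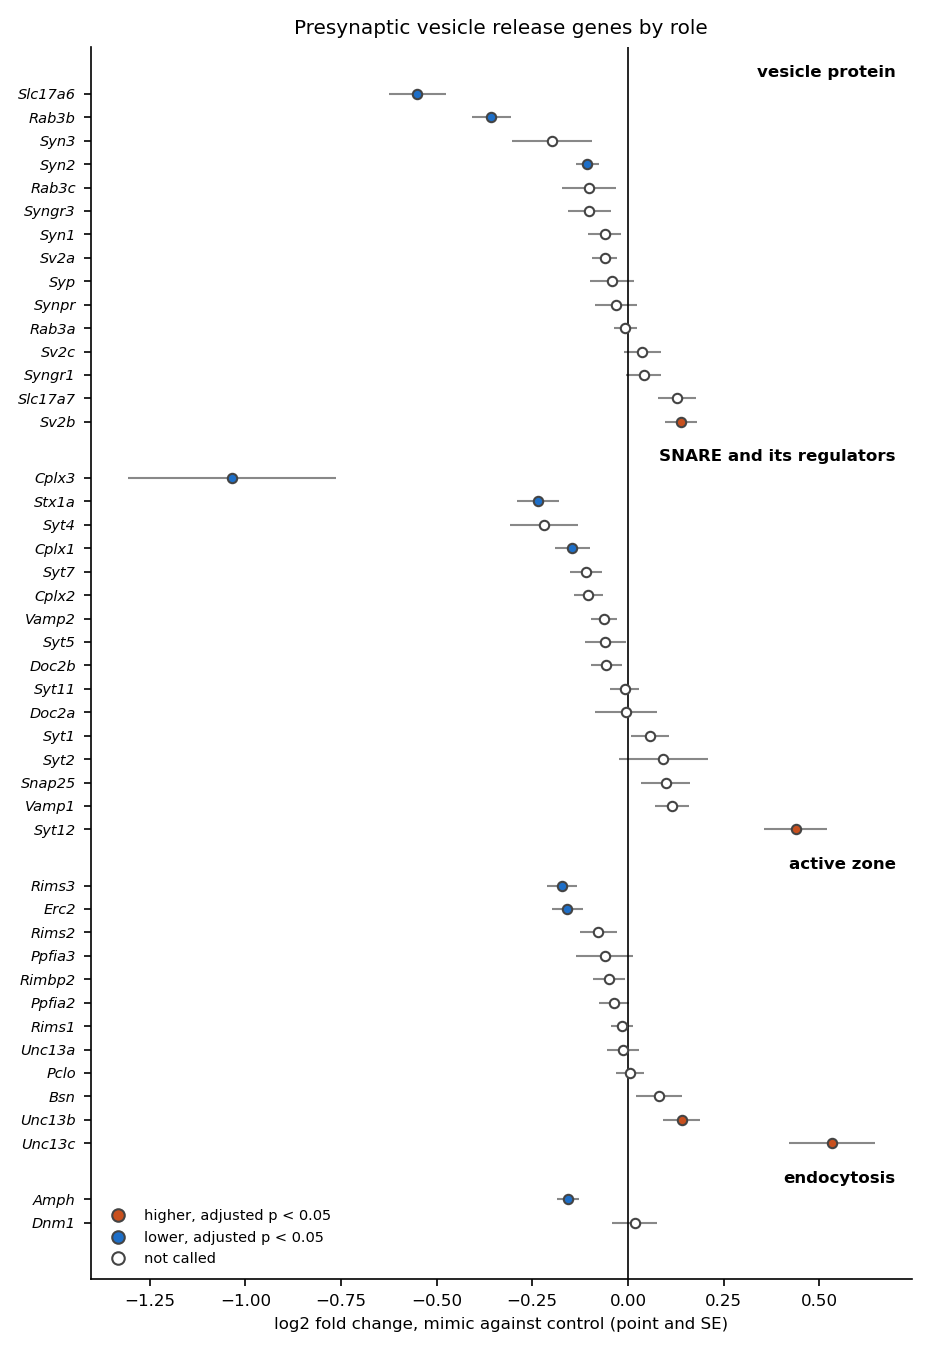
Log2 fold change of each of the 45 members, mimic against control with TMM scaling, with its SE, by role; blue marks the 9 members that were lower, orange the 4 that were higher and white the 32 not called. Most members lie within 0.25 of zero, and Cplx3, Slc17a6, Rab3b, Syt12 and Unc13c lie outside that range.

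Among the 15 vesicle proteins 3 were lower and 1 was higher, beside 10.7% and 11.5% of all tested genes. Their median log2 fold change was -0.06. Slc17a6 (chr7:51622006-51671119, plus strand), which encodes the vesicular glutamate transporter VGLUT2, had the largest change among members with a mean above 20 CPM. Its lowest, median and highest levels were 33.6, 42.5 and 46.9 CPM in control and 25.2, 29.8 and 31.4 CPM in mimic. All mimic libraries therefore lay under all control libraries. Relative to control this was a log2 fold change of -0.55 ± 0.07 (SE), a ratio of 0.683, with an adjusted p of 3.15e-05. This call was kept under each of the 22 alternatives tried, including a test against a minimum fold of 1.2, which no other member passed.

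Slc17a7, the gene of the transporter VGLUT1 that predominates in hippocampal pyramidal neurons, moved apart from Slc17a6. Its levels were 685, 742 and 861 CPM in control and 780, 804 and 859 CPM in mimic (lowest, median, highest). The groups overlapped, the highest control library being control 1. Its log2 fold change of 0.13 ± 0.05 was not called (adjusted p = 0.076), but it was without control 1 (0.17, adjusted p = 0.000681).

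Rab3b (chr4:108879063-108943324, plus strand) encodes a small GTPase of the Rab3 family, which guides vesicles to release sites. It ran from 25.8 to 28.2 CPM in control (median 27.0) and from 19.4 to 23.1 CPM in mimic (median 20.8), without overlap. This gave a log2 fold change of -0.36 ± 0.05, a ratio of 0.781, with an adjusted p of 4.59e-05. Its far more abundant relatives showed less: Rab3a had a log2 fold change of -0.01 (adjusted p = 0.91) and Rab3c of -0.10 (adjusted p = 0.345). Leaving out controls 1 and 2 together, Rab3c had -0.21 with an adjusted p of 0.0019.

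Syn2 (chr6:115134902-115282006, plus strand), 1 of the 3 synapsins that tether vesicles in the reserve pool, fell by a small amount. Its levels were 800, 837 and 853 CPM in control and 754, 770 and 794 CPM in mimic, so the groups came close without overlapping. Its log2 fold change was -0.11 ± 0.03 with an adjusted p of 0.0147. Exons of Syn2 share 90 bases with Timp4 on the opposite strand, which had a mean of 1004 counts beside 23955 for Syn2 and a log2 fold change of 0.44. The call was not kept without a count filter (adjusted p = 0.0721), with the replicate number as a block (0.0548) or with scaling to the neuron markers (0.868). Syn1 had a log2 fold change of -0.06 (adjusted p = 0.354). Syn3 had -0.20 ± 0.11 (adjusted p = 0.207) at a mean of 141 counts, and was lower without controls 1 and 2 together (-0.28, adjusted p = 0.0363). Of its exons 1733 bases are shared with the opposite-strand gene Timp3, which had 2946 counts. Since the use of strand in counting is not stated, reads of Syn3 and Timp3 cannot be told apart.

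Sv2b (chr7:75114894-75309262, minus strand), a membrane glycoprotein of synaptic vesicles, was the vesicle protein that rose. It ran from 464 to 543 CPM in control (median 519) and from 543 to 591 CPM in mimic (median 562). Only the lowest mimic library, mimic 5, lay within the control range. It had a log2 fold change of 0.14 ± 0.04 with an adjusted p of 0.0216. Its paralogues Sv2a (-0.06, adjusted p = 0.199) and Sv2c (0.04, adjusted p = 0.644) were not called.

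The other vesicle proteins were the tetraspan proteins synaptophysin (Syp), synaptoporin (Synpr) and the synaptogyrins Syngr1 and Syngr3. Their log2 fold changes ranged from -0.10 for Syngr3 (adjusted p = 0.225) to 0.04 for Syngr1 (adjusted p = 0.584), with -0.04 for Syp and -0.03 for Synpr. Syngr1 was higher without control 1 (0.09, adjusted p = 0.0377).

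Of the 16 SNARE proteins and regulators 3 were lower and 1 was higher, beside 10.7% and 11.5% of all tested genes. Their median log2 fold change was -0.06. Stx1a (chr5:135023482-135051100, plus strand) encodes syntaxin 1A, the plasma membrane SNARE to which Munc18 and Munc13 proteins bind. It had levels of 219, 230 and 283 CPM in control and 195, 204 and 212 CPM in mimic. Every mimic library was below every control library, and control 1 was the highest. For Stx1a the log2 fold change was -0.24 ± 0.05, a ratio of 0.849, with an adjusted p of 0.00439. Its 3 prime UTR holds the 7-base match shown above.

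The 3 remaining core SNARE genes were not called. Snap25 had a log2 fold change of 0.10 (adjusted p = 0.309), Vamp2, the main synaptobrevin of forebrain synapses, of -0.06 (adjusted p = 0.213), and Vamp1 of 0.12 (adjusted p = 0.0702). Vamp1 passed without control 1 (0.12, adjusted p = 0.0379) and without control 3 (0.14, adjusted p = 0.0329). It also passed with DESeq2 (0.12, adjusted p = 0.0448).

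All 3 complexins, small proteins that clamp and then assist the SNARE complex, were lower in each mimic library than in any control library. Such a lack of overlap, in either direction, was found for 13.3% of all tested genes. Of the complexins 2 passed the test, beside 22.2% of all tested genes. With libraries scaled to the neuron markers only Cplx3 remained lower. On that scale Cplx1 had a log2 fold change of -0.05 (adjusted p = 0.478) and Cplx2 a smaller negative value, and neither was called. Cplx1 (chr5:108518554-108550024, minus strand) ran from 424 to 515 CPM in control (median 442) and from 388 to 424 CPM in mimic (median 414). Its log2 fold change was -0.15 ± 0.05 with an adjusted p of 0.0292. That call was lost without control 2 (adjusted p = 0.0639), mimic 1 (0.0756), mimic 2 (0.0576) or mimic 3 (0.0659), so it stands near the threshold.

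Cplx2, the most abundant member per length of exon, had levels of 1309, 1354 and 1545 CPM in control and 1236, 1288 and 1297 CPM in mimic. Its log2 fold change of -0.10 ± 0.04 missed the threshold (adjusted p = 0.0666) and passed it without control 4 (-0.12, adjusted p = 0.0451). Cplx2 also passed with DESeq2 (adjusted p = 0.0455) and with a filter of at least 10 counts on average (0.0432). Cplx3 (chr9:57599992-57606281, minus strand), known best from retinal ribbon synapses, was at the limit of detection, with a mean of 11 counts a library. It ran from 0.322 to 0.850 CPM in control (median 0.445) and from 0.141 to 0.303 CPM in mimic (median 0.260). The log2 fold change was -1.04 ± 0.27 with an adjusted p of 0.0101, and rests on few reads. Cplx3 holds 2 of the 7-base matches shown above, Cplx2 holds 1 and Cplx1 none.

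Among the 7 synaptotagmins 1 was called, beside 22.2% of all tested genes. Syt12 (chr19:4445908-4477447, minus strand), a form that lacks calcium binding, rose from 4.89, 5.48 and 6.62 CPM in control to 6.43, 7.36 and 8.32 CPM in mimic (lowest, median, highest). The ranges met only where control 1 exceeded mimic 2. The log2 fold change was 0.44 ± 0.08, a ratio of 1.36, with an adjusted p of 0.000805. At a mean of 193 counts Syt12 is a minor transcript in these cultures.

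Syt1, the main calcium sensor of fast release in the forebrain, had levels of 654, 755 and 789 CPM in control and 700, 774 and 803 CPM in mimic. These ranges lay largely on top of each other, with a log2 fold change of 0.06 ± 0.05 (adjusted p = 0.456), although its 3 prime UTR holds a match to bases 2 to 8 of the mimic. Syt2 (0.09, adjusted p = 0.641) and Syt4 (-0.22, adjusted p = 0.0967) hold a match as well. Syt4 was lower without control 1 (-0.28, adjusted p = 0.0181). Syt7, a sensor linked to slow release and facilitation, had -0.11 (adjusted p = 0.0675) and was lower without control 5 (-0.13, adjusted p = 0.0418) or control 6 (-0.13, adjusted p = 0.0385). Syt7 was also lower with DESeq2 (adjusted p = 0.048) and with a filter of at least 10 counts on average (0.0447). Syt5 had -0.06 (adjusted p = 0.494) and Syt11 -0.01 (adjusted p = 0.915). The Doc2 proteins, high-affinity calcium sensors of spontaneous release, were not called either, with -0.01 for Doc2a (adjusted p = 0.973) and -0.06 for Doc2b (adjusted p = 0.365). Exons of Doc2a share 1103 bases with the opposite-strand gene Ino80e, whose mean of 822 counts exceeded the 412 of Doc2a.

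Of the 12 active zone genes 2 were lower and 2 higher, beside 10.7% and 11.5% of all tested genes. Their median log2 fold change was -0.03. Rims3 (chr4:120854816-120896579, plus strand), a short RIM protein that holds only the carboxy-terminal part of the longer forms, had levels of 46.9, 48.9 and 50.8 CPM in control and 40.0, 43.7 and 45.4 CPM in mimic. The groups did not overlap. That amounts to a log2 fold change of -0.17 ± 0.04 with an adjusted p of 0.0036. The long RIM genes Rims1 (-0.01, adjusted p = 0.777) and Rims2 (-0.08, adjusted p = 0.298) both hold a match to bases 2 to 8 and were not called.

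Erc2 (chr14:27622428-28478537, plus strand), the scaffold protein also called CAST, ran from 243 to 287 CPM in control (median 280) and from 236 to 248 CPM in mimic (median 244). Control 1, the lowest control library, lay within the mimic range. The log2 fold change was -0.16 ± 0.04 with an adjusted p of 0.00893. The giant scaffold genes Bsn (0.08, adjusted p = 0.393) and Pclo (0.01, adjusted p = 0.946) and the RIM-binding protein gene Rimbp2 (-0.05, adjusted p = 0.452) were not called. Bsn was higher without control 1 (0.14, adjusted p = 0.0131).

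The Munc13 family, which primes docked vesicles, differed by member. Unc13c (chr9:73479422-73968966, minus strand), typical of the cerebellum, had levels of 2.98, 3.73 and 4.69 CPM in control and 4.91, 5.26 and 7.23 CPM in mimic. The groups did not overlap, and mimic 3 stood highest. Its log2 fold change was 0.53 ± 0.11, a ratio of 1.45, with an adjusted p of 0.00195 at a mean of 141 counts.

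Unc13b (chr4:43058953-43264871, plus strand), encoding Munc13-2, ran from 83.6 to 102 CPM in control (median 89.0) and from 92.0 to 105 CPM in mimic (median 98.5). The groups overlapped through control 3. Its log2 fold change was 0.14 ± 0.05 with an adjusted p of 0.0482. This call was lost when any 1 of 10 libraries was left out, with adjusted p up to 0.108, and was kept only without control 3 or mimic 4. Unc13a, the main Munc13 gene of glutamate synapses, had -0.01 (adjusted p = 0.868), and shares 495 bases of exon with the opposite-strand gene Colgalt1. The liprins Ppfia2 (-0.04, adjusted p = 0.573) and Ppfia3 (-0.06, adjusted p = 0.633), which recruit active zone components, were not called. Without controls 1 and 2 together Ppfia2 was lower (-0.08, adjusted p = 0.0209). Ppfia3 is the member with the 8-base match.

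Of the endocytosis genes Amph was lower and Dnm1 was not called. Amph (chr13:18948205-19150921, plus strand), encoding amphiphysin, which binds dynamin and the clathrin adaptor, had levels of 444, 453 and 469 CPM in control and 397, 407 and 416 CPM in mimic. The gap between the groups exceeded the range within either. The log2 fold change was -0.16 ± 0.03, a ratio of 0.897, with an adjusted p of 0.000629. Dnm1, the neuronal dynamin, had 0.02 ± 0.06 (adjusted p = 0.877) over a wide control range of 408 to 548 CPM. Without controls 1 and 2 together Dnm1 was higher (0.11, adjusted p = 0.00405).

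**Figure D3:**
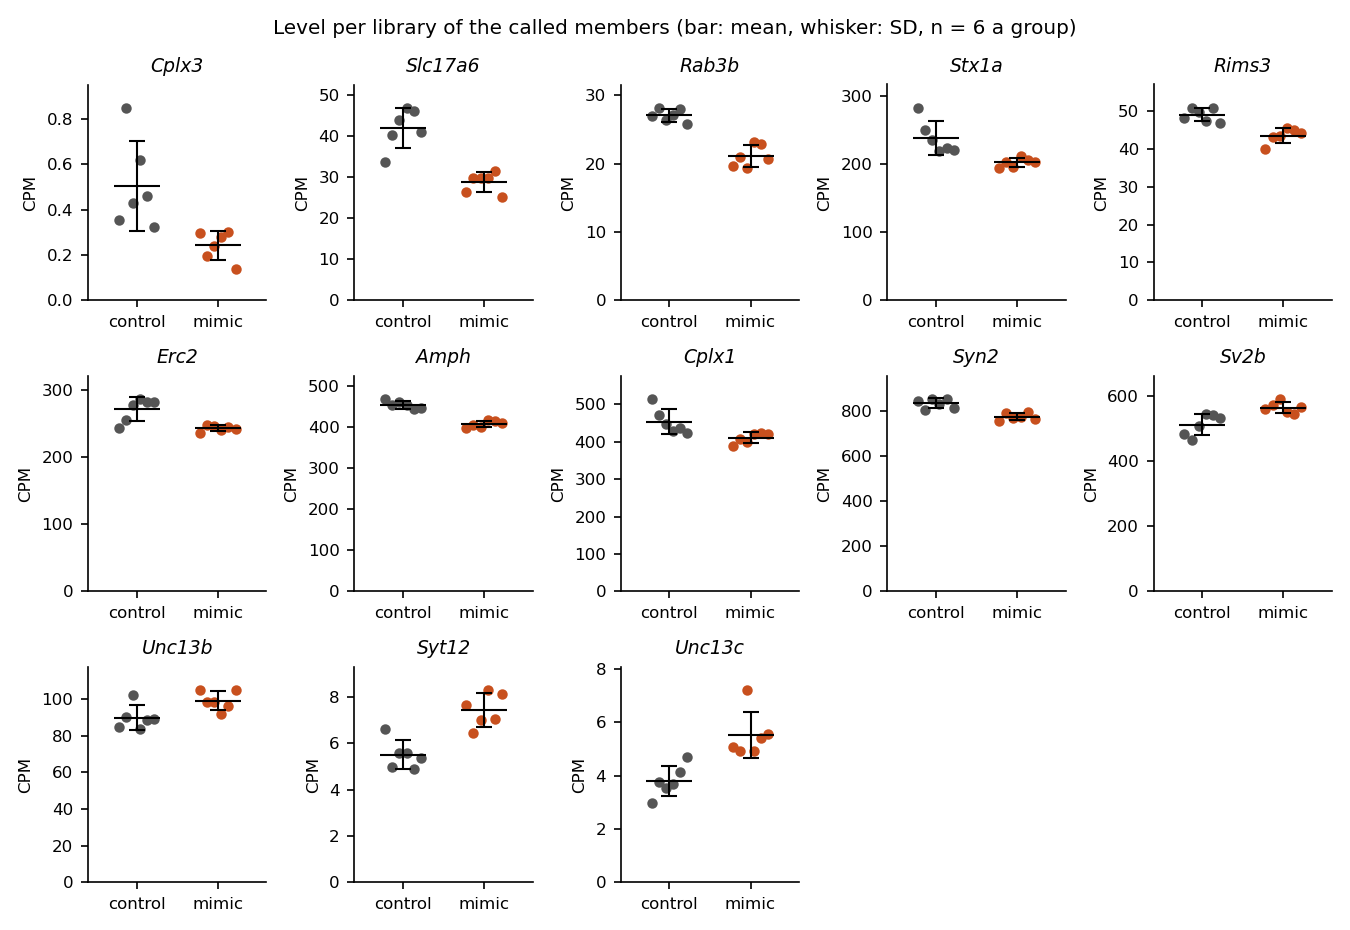
CPM in each library of the 13 called members, ordered by log2 fold change, with the mean (bar) and SD (whisker) of each group of 6 libraries; each axis starts at 0. The groups separate fully for Cplx3, Slc17a6, Rab3b, Stx1a, Rims3, Amph, Cplx1, Syn2 and Unc13c, and for most of them the step is small against the level.

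Level per kilobase of exon placed the members over more than 3 orders of magnitude. In control cultures the highest were Cplx2 with 279, Cplx1 with 207, Vamp2 with 203, Syt11 with 190 and Rab3a with 185 CPM per kilobase, and the lowest were Cplx3 with 0.171, Syt2 with 0.322, Syn3 with 0.405, Unc13c with 0.432 and Syt12 with 0.995 CPM per kilobase. Lengths are those of all annotated exons joined, which lowers the value of genes with long rare exons such as Unc13b. The larger log2 fold changes were among members of low level. Of the 30 members above 100 CPM in control, 5 were lower and 1 higher, with log2 fold changes from -0.24 to 0.14. Among all 2441 tested genes above that level, 15.4% were lower and 10.7% higher. Of the 15 members at or below 100 CPM, 4 were lower and 3 higher, with log2 fold changes from -1.04 to 0.53, and of the 16406 other tested genes 10% were lower and 11.6% higher.

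**Figure D4:**
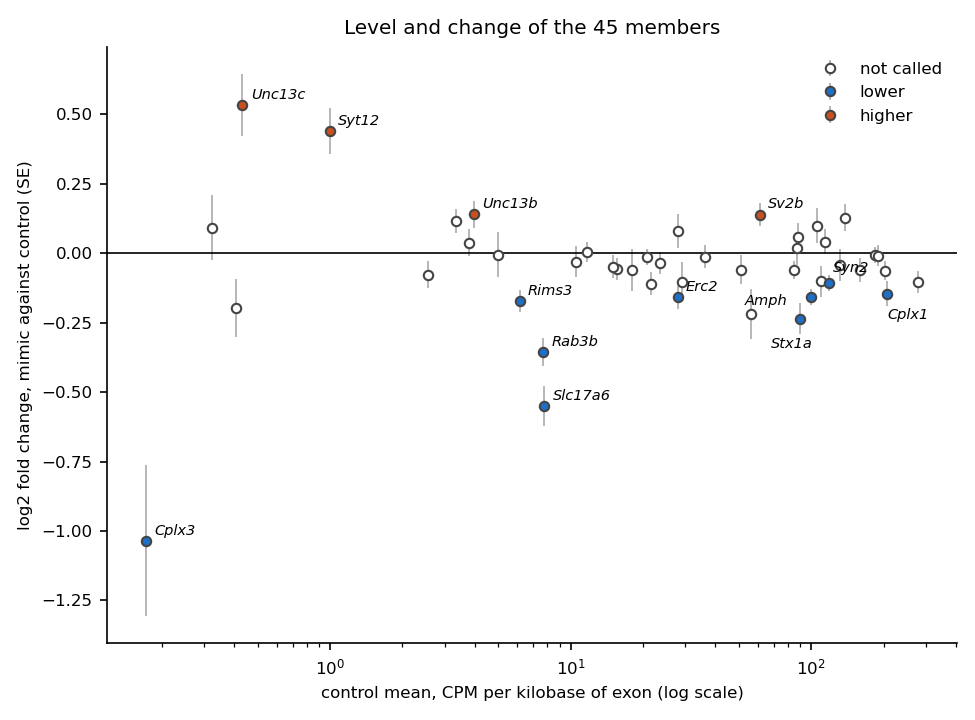
Control mean in CPM per kilobase of exon (log axis) against the log2 fold change with its SE for the 45 members; blue, lower; orange, higher; white, not called. Members above 20 CPM per kilobase lie between -0.24 and 0.14, and Cplx3, Slc17a6, Rab3b, Syt12 and Unc13c, the largest changes, lie at 7.77 CPM per kilobase or less.

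Ratios between related members within a library do not depend on how libraries are scaled. Of 24 pairs compared, 10 differed between the groups after adjustment over the 24 (two-sided exact permutation test over all relabellings, whose smallest possible p is 0.00216). The ratio of the 2 vesicular glutamate transporters moved furthest upward. The log2 ratio of counts of Slc17a7 to Slc17a6 was 4.16 ± 0.30 in control and 4.83 ± 0.17 in mimic (SD), a difference of 0.67 (exact permutation, adjusted p = 0.0148). Control 1 alone reached into the mimic range.

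In the Rab3 family the ratio of Rab3b to Rab3a fell by 0.35 on the log2 scale (exact permutation, adjusted p = 0.0104), and in the RIM family that of Rims3 to Rims1 fell by 0.16 (adjusted p = 0.0104, same test). Both Munc13 ratios to Unc13a rose, by 0.55 for Unc13c (exact permutation, adjusted p = 0.0104) and by 0.15 for Unc13b (adjusted p = 0.026, same test). The ratios of Rab3c to Rab3a (-0.09, exact permutation, adjusted p = 0.501) and of Rims2 to Rims1 (-0.06, adjusted p = 0.329, same test) did not pass. Without controls 1 and 2 together that of Rab3c to Rab3a passed (-0.21, adjusted p = 0.0352, same test). The ratio of Sv2b to Sv2a rose by 0.20 (exact permutation, adjusted p = 0.0148) and that of Syt12 to Syt1 by 0.37 (adjusted p = 0.0312, same test).

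A ratio could also differ where neither gene was called alone. Vamp1 to Vamp2 rose by 0.18 (exact permutation, adjusted p = 0.0104), from log2 ratios of -4.58 to -4.43 in control to -4.38 to -4.24 in mimic. Syngr3 to Syngr1 fell by 0.14 (adjusted p = 0.0104, same test), from -1.35 to -1.19 in control to -1.45 to -1.38 in mimic. The groups did not overlap for either ratio.

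Among the complexins the ratio of Cplx3 to Cplx1 fell by 0.84 (exact permutation, adjusted p = 0.0289) on few reads of Cplx3, whereas that of Cplx2 to Cplx1 differed by 0.04 with an adjusted p of 0.329 (same permutation test). Leaving out 1 library at a time gave 7 to 12 called pairs. The ratio of Syt12 to Syt1 was lost without any 1 of controls 2 to 6 or of mimics 1, 4, 5 and 6 (exact permutation, adjusted p up to 0.0623), that of Cplx3 to Cplx1 without any 1 of controls 2 to 5 or of mimics 2, 3, 4 and 6 (up to 0.0577), and that of Unc13b to Unc13a without control 2, control 4 or mimic 6 (0.0519). The 14 other pairs, among them Syn2 to Syn1, Syt7 to Syt1 and Pclo to Bsn, did not pass. Without controls 1 and 2 together Syn2 to Syn1 passed (-0.11, exact permutation, adjusted p = 0.0254) and Unc13b to Unc13a did not (0.09, adjusted p = 0.061, same test). Without control 1 the ratios of Pclo to Bsn (-0.16) and of Syt4 to Syt11 (-0.30) passed (exact permutation, adjusted p = 0.0346 for both), as did that of Syt7 to Syt1 without mimic 1 (-0.20, adjusted p = 0.0231, same test). Pairs that share a denominator, such as the 2 Munc13 ratios, are not independent.

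**Figure D5:**
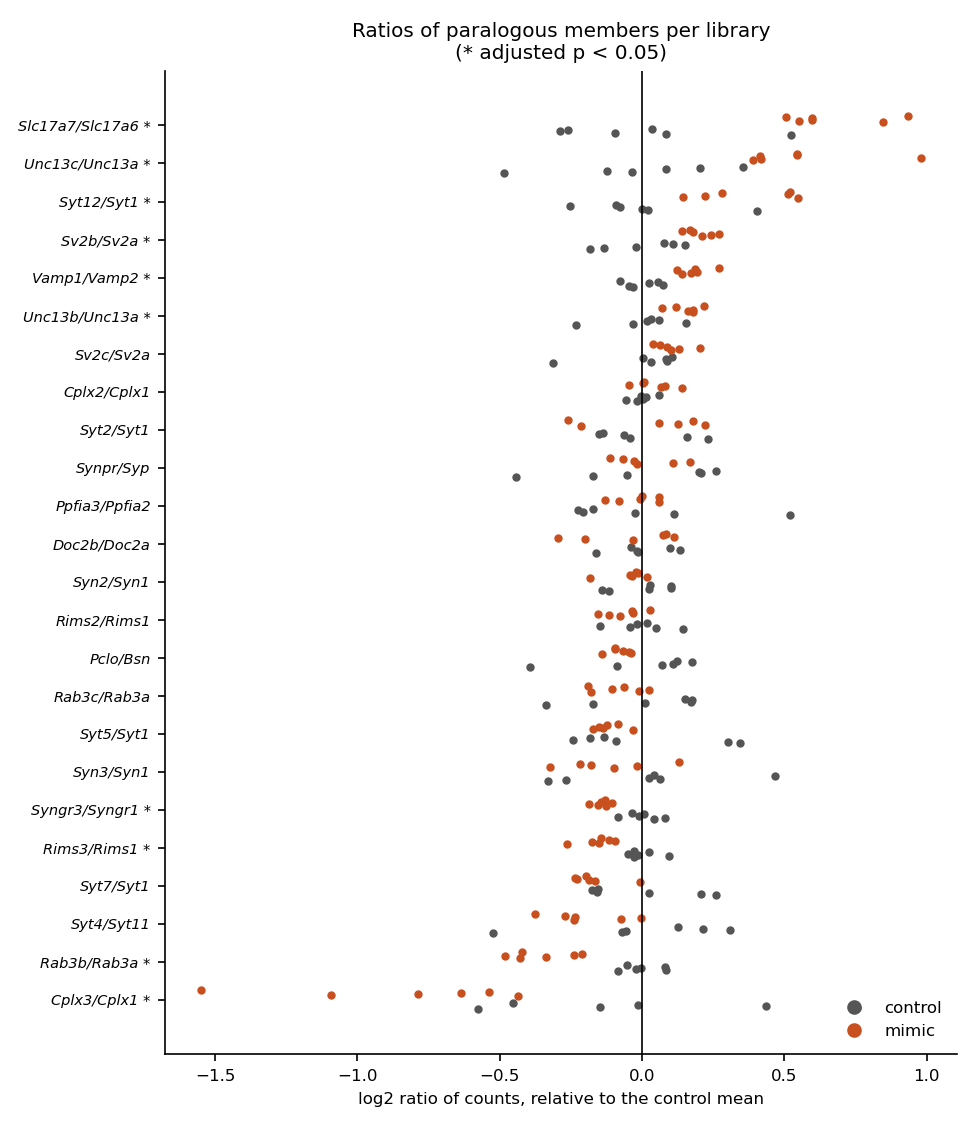
Log2 ratio of counts for 24 pairs of related members in each library, relative to the mean of the control libraries (grey, control; orange, mimic); pairs with an asterisk had an adjusted p under 0.05. Mimic libraries lie to the right for Slc17a7/Slc17a6 and Unc13c/Unc13a and to the left for Rab3b/Rab3a and Cplx3/Cplx1.

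Members with and without a seed match to the mimic had medians close to each other. Of the 14 with a match 2 were lower (Stx1a and Cplx3), 1 was higher (Unc13b) and 11 were not called, with a median log2 fold change of -0.06. Of the 31 without a match 7 were lower and 3 higher, with a median of -0.04. Of all tested genes 10.7% were lower and 11.5% higher, with a median of -0.01. The difference between the members with and without a match was not tested.

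Beyond the members, 102 other presynaptic genes were listed, 100 of which were tested. Of these 21 were lower and 7 higher, 28 in all, beside 22.2% of all tested genes called (17 beside 18.6% without mimic 6, and 43 beside 31.9% without controls 1 and 2), and their median log2 fold change was -0.04. In the list of further SNARE machinery 4 were lower and 1 higher of 19, beside 10.7% and 11.5% of all tested genes. Vamp3, the synaptobrevin relative cellubrevin that many non-neuronal cells use, rose from 44.9 ± 3.8 to 59.8 ± 1.2 CPM (SD), a log2 fold change of 0.41. Its lower genes were Snap23 (-0.19), Stx2 (-0.18), Stxbp2 (-0.17) and Snap47 (-0.15).

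Of 31 further vesicle proteins and calcium sensors 4 were lower and 2 higher, beside 10.7% and 11.5% of all tested genes. Their summed level did not overlap, at 4486 to 4826 CPM in control and 4354 to 4464 CPM in mimic. Among the lower were Syt9 (log2 fold change -0.25), Syngr2 (-0.23) and Cadps2 (-0.18), a priming factor of dense-core vesicles. Higher were Sypl (0.18) and Syt17 (0.18). Of 20 further active zone genes 5 were lower and 2 higher, beside 10.7% and 11.5% of all tested genes. The lower were led by Ppfibp1 (-0.29), Ptprd (-0.23), Tspoap1 (-0.18) and the N-type calcium channel gene Cacna1b (-0.18). The higher were Ppfibp2 (0.42) and Ppfia1 (0.16).

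Of 30 further endocytosis genes 8 were lower and 2 higher, beside 10.7% and 11.5% of all tested genes. Both clathrin light chain genes fell, Clta from 214 ± 24 to 182 ± 3.6 CPM (SD; log2 fold change -0.23, adjusted p = 0.00545) and Cltb from 191 ± 16 to 165 ± 5.4 CPM (-0.21, adjusted p = 0.00437). Lower too were the membrane-bending adaptors Fcho2 (-0.28) and Fcho1 (-0.20). The 2 higher genes were Sh3glb1 (0.44), an endophilin B that acts mainly outside the synapse, and the phosphatase Synj2 (0.40). The glial and cell cycle sums given above moved with these genes too, and their part was not tested.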

How the data were processed

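RNA was measured in 6 control and 6 mimic cultures, grouped by their titles. Per the labels, libraries were made with the TruSeq RNA v2 kit and read as 50 bp single ends. The authors checked reads with FastQC 0.11.5, aligned them to mm10 with STAR 2.5.2b and counted reads per Ensembl gene with featureCounts (Subread 1.5.1), and the raw counts they deposited were used here. The use of strand in counting is not given in the sources used here. A second file deposited for all samples gives a normalized signal (counts over 1 factor a sample, computed by the authors) and served 1 alternative. Counting cannot separate reads shared by near-identical transcripts.

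Genes were named from GENCODE M21 (GRCm38), 48349 of 48709. Genes reaching 5 counts in 6 or more libraries entered edgeR 4.0.16 (R 4.3.3), whose quasi-likelihood F-test was run with robust estimation, TMM scaling, no covariate and Benjamini-Hochberg adjustment over 18847 genes, and an adjusted p under 0.05 was called. Adjusted p-values of single genes are from this test unless an alternative is named beside them. The SE is the size of the log2 fold change divided by the square root of F. Ratios of paralogues used log2 of counts plus 0.5 and an exact permutation test. The fit was tested on simulated data. Alternatives were DESeq2 1.42.0, limma 3.58.1 on the normalized table, 3 other scalings, 2 other count filters, a minimum fold of 1.2, a replicate block, a pseudocount of 5, and each library left out in turn. Controls 1 and 2, the shallowest libraries, were left out together as an alternative chosen after seeing the data.

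The members and lists were chosen with earlier results of these data known. The rule for named genes was all 45 members, those with an adjusted p under 0.05 in full, and, in each list of other presynaptic genes, the called genes with a mean of at least 100 counts, at most 4 a direction by size of change. Of the genes under this rule 1 is not reported here. Intervals of counts cover counting error only, and with these totals the depth limits only genes of few reads such as Cplx3.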

Additional observations from a re-analysis of the deposited data

Results flagged for a closer look

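In 9 of the 90 groups examined (45 members in control and in mimic) 1 library stood apart from the other 5 by more of the group's range than Dixon's critical value at 95% allows. About 1 in 20 groups, or 4.5 of 90, is expected by chance. Control 1 was the highest control library for Rab3a (435 CPM, next 412), Syt11 (1110 CPM, next 978) and Cplx2 (1545 CPM, next 1370). Control 3 was the highest for Unc13b (102 CPM, next 90.3), a value within the mimic range. Mimic 1 was the highest mimic library for Syn1 (539 CPM, next 506) and Pclo (270.4 CPM, next 264.9). Mimic 3 was the highest for Sv2c (40.3 CPM, next 37.9) and Unc13c (7.23 CPM, next 5.55). Mimic 4 was the lowest for Cplx2 (1236 CPM, next 1277).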

How the results depend on the processing

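Over 22 alternatives 920 of 990 values for single members kept their side of the threshold, without a reversed call, 37 lost the call, 31 gained one and 2 reversed. Uncalled in both, 19 members changed sign at least once, at log2 fold changes of at most 0.09. With libraries scaled to the neuron markers 13 members were higher and 3 lower (25.3% and 5.14% of all genes), the median log2 fold change was 0.049 for the members and 0.086 for all genes, which shifted alike by 0.098, and Rab3a (0.091) and Rims1 (0.083) went from slightly negative to higher with that shift. Against a minimum fold of 1.2, which asks for a larger change, 1 member (2.22%) was called by edgeR (0 higher, 1 lower; 2 higher and 3 lower at an unadjusted p under 0.05), with 3 of 100 other presynaptic genes, beside 5.49% of all genes. Without that minimum DESeq2 called 5 members higher and 11 lower, beside 13.8% and 12.6% of all genes, and limma 4 and 9, beside 12.1% and 10.5%. Without controls 1 and 2 together 20 members were called, 7 of them higher, with 43 other presynaptic genes, while calls over all genes rose from 22.2% to 31.9%. The cause was not tested. Leaving out each library in turn gave 11 to 17 members called, 3 to 7 higher and 8 to 10 lower, 17 to 36 other presynaptic genes (17 without mimic 6, 36 without control 1) and 7 to 12 paralogue ratios. The 17 members and the 7 higher came without control 1, where 27.4% of all genes were called, against 18.6% to 21.1% without any other single library. Correlations of the deviations of same-numbered libraries ran from -0.22 to 0.32, and no control library matched the mimic library of its own number best. The replicate numbers therefore gave no sign of paired cultures, which weak correlations cannot exclude. With the replicate block Syn2 (adjusted p = 0.0548), Cplx1 (0.0785) and Unc13b (0.0544) lost the call and Slc17a7 (0.0497) gained it, and 0 paralogue ratios passed an exact sign-flip permutation test, whose smallest p is 0.03125 (10 of 24 pairs had an unadjusted p under 0.05, and the lowest adjusted p was 0.075). Depth limits what can be said of Cplx3.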

Other observations

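The spread between libraries differed between the groups. The SD was larger in control than in mimic for 40 of the 45 members (88.9%), beside 72.7% of all tested genes. The median coefficient of variation of the members was 7.44% in control and 3.44% in mimic, beside 11% and 6.73% over all tested genes. Without controls 1 and 2 the SD was larger in control for 24 members (53.3%), beside 43.8% of all genes.

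Libraries took unequal shares of the extremes. Control 1 was the highest control library for 24 members, with a median log2 deviation of 0.08 from the control mean, and also the lowest for 10, among them Slc17a6, Syt4, Rab3c and Erc2. Control 4 was the lowest for 17. In mimic, library 1 was the lowest for 15 and library 3 the highest for 15. In control 1 the oligodendrocyte lineage and interneuron sums were also the highest of the control libraries, at 727 and 1612 CPM.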
